A study of Mus musculus with 6 samples.

Results

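The inhibitor of DNA binding genes Id1, Id2, Id3 and Id4 were followed in RNA from whole mouse testes. Their 4 rows were taken by gene symbol from the 21786 symbols listed in all 6 libraries. Each library is polyadenylated RNA of testis from a male on a C57BL/6 background. Whether the libraries of a genotype came from separate males was not established here. In 3 libraries the male was Stra8 -/- and 1 year old, and its testis was grossly enlarged. Per the labels, most of its cells resembled type A spermatogonia, which are mitotic germ cells. In the other 3 the male was Stra8 +/+ and aged 2 to 4 months, with a normal testis. Stra8 encodes a factor that germ cells induce under retinoic acid and need for meiosis. Age, testis enlargement and genotype differ together and cannot be told apart.

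Id proteins carry a helix-loop-helix domain but no basic region, so they pair with other helix-loop-helix proteins without binding DNA. Their main partners are the E proteins, basic helix-loop-helix (bHLH) factors encoded by Tcf3, Tcf4 and Tcf12, which bind E-box sites alone or together with tissue-specific bHLH activators. BMP signals, acting through Smad proteins, are known inducers of Id1, Id2 and Id3 in many tissues. In the testis Id4 is used as a marker of spermatogonial stem cells.

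Promoter sequences are shown for 3 genes that took different courses, Id3 higher, Id4 lower and Id2 uneven. Whether the sequences bear on these courses was not tested, and no window was available for Id1. RefSeq (build GRCm38.p6) gave a window from 250 bases before to 50 after the gene start for 3 of the 4 members: Id2 at chr12:25096043-25096342 (minus strand), Id3 at chr4:136143572-136143871 (plus strand) and Id4 at chr13:48260866-48261165 (plus strand). Capitals mark matches, on either strand, to the E-box CANNTG, the GC-rich Smad site GGCGCC, the Smad-bound letters CAGAC, the cAMP response letters TGACG and the CCAAT box.
Id2: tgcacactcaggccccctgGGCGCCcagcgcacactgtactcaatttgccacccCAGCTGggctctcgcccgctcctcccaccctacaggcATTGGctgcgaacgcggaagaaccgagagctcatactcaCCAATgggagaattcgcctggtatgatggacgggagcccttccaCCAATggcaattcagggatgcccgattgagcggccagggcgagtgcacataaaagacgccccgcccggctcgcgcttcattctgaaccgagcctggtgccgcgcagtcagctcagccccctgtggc
Id3: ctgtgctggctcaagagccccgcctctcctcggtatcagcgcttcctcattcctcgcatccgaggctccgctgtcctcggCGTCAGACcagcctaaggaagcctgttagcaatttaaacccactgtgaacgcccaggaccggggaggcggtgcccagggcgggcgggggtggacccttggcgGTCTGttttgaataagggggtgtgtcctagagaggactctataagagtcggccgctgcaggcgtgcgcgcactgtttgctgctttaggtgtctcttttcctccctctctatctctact
Id4: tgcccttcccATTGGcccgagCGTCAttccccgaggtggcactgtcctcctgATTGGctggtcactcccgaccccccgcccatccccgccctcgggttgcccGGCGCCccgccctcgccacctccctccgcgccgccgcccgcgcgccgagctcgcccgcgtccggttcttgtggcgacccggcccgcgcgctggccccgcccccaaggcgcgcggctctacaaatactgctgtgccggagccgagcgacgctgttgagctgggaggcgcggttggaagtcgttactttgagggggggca

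The Id2 window held 3 CCAAT boxes, 1 E-box and 1 GGCGCC. In the Id4 window there were 2 CCAAT boxes, 1 GGCGCC and 1 TGACG. Id3 had 1 TGACG and 2 CAGAC, the TGACG overlapping 1 of the CAGAC. Among 32851 mouse promoter windows of that length, 72.3% held an E-box, 11.9% GGCGCC, 49.6% CAGAC, 20.8% TGACG and 37.4% a CCAAT box. GC content was 63.3% for Id2, 60.0% for Id3 and 73.3% for Id4, against a median of 52.7% over all windows. These matches describe letters in the windows and are not evidence of binding.

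Depth was 6733128 to 12425689 gene reads per library. The Stra8-deficient libraries varied more among themselves, with a biological coefficient of variation of 38.2% against 7.46% in wild type. The third Stra8-deficient library stood apart in its cell type markers. Leydig cell markers summed to 3245 CPM (CPM being counts scaled to library size by TMM factors) there, against 350 and 18.4 CPM in the first and second. Macrophage markers summed to 1705 CPM against 537 and 404 CPM, and Sertoli cell markers to 1648 CPM against 598 and 375 CPM. Its reads had also been counted on a longer gene list, of 23285 symbols instead of 22055. Stra8 itself was at 21.2, 23.7 and 18.1 CPM in the libraries labelled Stra8 -/- and 18.7, 18.6 and 17.1 CPM in those labelled Stra8 +/+ (0.21 ± 0.21 on the log2 scale; edgeR, adjusted p = 0.384). The labels do not say which part of the gene was deleted and counts per gene do not show where its reads lie, so this row cannot check the genotype. Stra8-deficient therefore means here the libraries labelled so. Among germ cell markers, the 14 spermatid markers summed to 27262 to 31491 CPM in wild type and 8.86 to 16.1 CPM in the Stra8-deficient libraries, where 1 of them, Catsper1, was at 0. The 21 markers of undifferentiated spermatogonia summed to 196 to 227 CPM in wild type and 1825 to 3194 CPM in Stra8-deficient testes.

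Among the 4 members, Id1 and Id3 rose, Id4 fell and Id2 was not called. A gene was called at a Benjamini-Hochberg adjusted p under 0.05 in edgeR's quasi-likelihood test over 15018 genes, and log2 fold changes set the Stra8-deficient level over that of wild type, each ± its standard error (SE). All 4 members passed the filter on low reads. The 3 called members, and each count of called genes, have to be read against a background in which 75.8% of all tested genes were called, 39% higher and 36.7% lower. The normalised levels of the genotypes did not overlap for any of the 4, as for 80.2% of tested genes. The median log2 fold change of all tested genes was 0.11, which was not subtracted from the changes given here. In whole tissue, fewer cells of a type and less RNA per cell cannot be told apart.

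Id1, the member best known from proliferating and endothelial cells, was nearly silent in normal testes. It was read 12, 8 and 10 times in the wild-type libraries, or 1.87, 1.13 and 1.83 CPM. The Stra8-deficient libraries had 298, 524 and 308 reads, or 29.9, 49.9 and 20.6 CPM. Every Stra8-deficient library lay far above every wild-type one, the second being highest. Id1 rose by 4.38 ± 0.42 on the log2 scale (edgeR, adjusted p = 1.41e-05), about 20.8-fold. Leaving out any 1 library gave 3.93 to 4.63. The 12 endothelial markers summed to 226 to 364 CPM in Stra8-deficient and 78.6 to 101 CPM in wild-type testes, and their part in the rise of Id1 was not tested. Of 10 tested, 6 were higher and 4 not called, beside 39% higher and 36.7% lower among all tested genes. Erg (120 against 2.46 CPM) and Vwf (101 against 38.7 CPM) made up most of the Stra8-deficient sum, while Cdh5 was at 10.9 against 11.8 CPM. Within the Stra8-deficient libraries the third was the lowest for the endothelial sum and for Id1. It was also lowest for the lists of undifferentiated (1825 CPM) and differentiating spermatogonia (2654 CPM). The endothelial sum was highest in the first library and Id1 in the second. The sum had the order of Vwf, which differed most between these libraries (181.6, 86.2 and 36.0 CPM). Erg (104, 148 and 107 CPM), Pecam1, Kdr, Tek and Emcn were, like Id1, highest in the second library. Cdh5, Tie1, Cldn5, Esam and Robo4 were, like Vwf, highest in the first, and Flt1 in neither. The order of the sum rests largely on Vwf, so it cannot show whether Id1 followed the endothelial markers.

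Id3, like Id1 a classical BMP response gene, rose less. Its wild-type libraries had 14, 12 and 12 reads, at 2.19, 1.69 and 2.20 CPM. In the Stra8-deficient libraries 98, 108 and 241 reads gave 9.84, 10.3 and 16.1 CPM, and the groups lay apart, with the third library highest. The rise was 2.58 ± 0.35 on the log2 scale (edgeR, adjusted p = 0.000132), about 5.97-fold.

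Id2, which is known from lymphoid and myeloid cells as well as epithelia, stood high in the third Stra8-deficient library only. Wild-type libraries had 30, 30 and 23 reads, at 4.68, 4.24 and 4.22 CPM. The Stra8-deficient libraries had 47, 65 and 316 reads, at 4.72, 6.19 and 21.2 CPM. The first nearly touched the highest wild-type library, and the third alone was far from the wild-type range. Its estimate of 1.29 ± 0.56 missed the threshold (edgeR, adjusted p = 0.0589) and became 0.31 ± 0.29 without the third library (edgeR, adjusted p = 0.360). The authors' deposited table gives Id2 a log2 ratio of 1.29 with a corrected p of 0.00485. Id2 was also called without the first (1.60) or the second Stra8-deficient library (1.52), with upper-quartile factors (1.56), with library size alone (1.90) and with limma's voom with weights per genotype (1.06).

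The level of Id2 in the third library was 3.88 times the mean of the first and second. Of 15018 tested genes, 343 (2.28%) stood at least as far above those libraries on the log2 CPM scale. The corresponding ratios were 1.60 for Id3, 1.03 for Id4 and 0.517 for Id1, so the members did not share this library's pattern. All 11 macrophage markers and all 9 Leydig markers had their highest Stra8-deficient level in the third library, as did 14 of 19 Sertoli and 6 of 7 peritubular myoid markers. Lymphocyte markers summed to 45.3 CPM there, and to 20.9 and 18.8 CPM in the others, with 6 of 12 highest in the third. The share of all tested genes with their highest Stra8-deficient level in that library was not computed. Wild-type libraries, with Id2 at 4.22 to 4.68 CPM, had larger Sertoli (2840 to 3154 CPM) and myoid sums (507 to 551 CPM) than the third library (1648 and 443 CPM). Their Leydig sums, 1024 to 1550 CPM, lay above those of the first and second Stra8-deficient libraries, and their macrophage sums, 115 to 126 CPM, below all 3. The part of these cells in the level of Id2 was not tested.

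**Figure D1:**
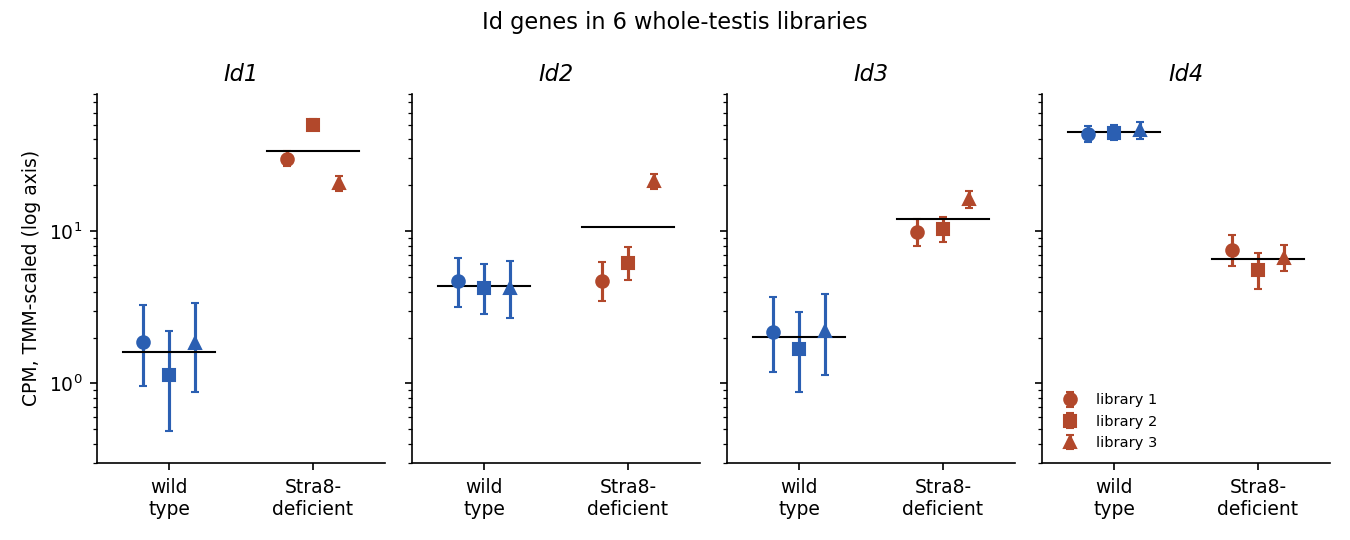
Level of each Id gene in CPM (TMM-scaled, log axis) in 3 wild-type (blue) and 3 Stra8-deficient (red) libraries. Points are libraries with 95% exact Poisson counting intervals, the symbol shape gives the library number and black lines are group means. Id4 sits at 43.6 to 45.9 CPM in wild type and 5.53 to 7.53 CPM in Stra8-deficient testes, and Id2 is high only in the third Stra8-deficient library.

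Id4 was the main Id transcript of normal testes and the only member to fall. It had 279, 314 and 250 reads in wild type, at 43.6, 44.3 and 45.9 CPM, and 75, 58 and 100 reads in the Stra8-deficient libraries, at 7.53, 5.53 and 6.70 CPM. The levels were tight within each genotype and far from overlapping. On the log2 scale its change was -2.76 ± 0.21 (edgeR, adjusted p = 3.19e-06), about 6.76-fold lower, and leaving out any 1 library gave -2.89 to -2.69. Scaled to the Sertoli cell list, however, Id4 was at -0.55 and not called (edgeR, adjusted p = 0.460). The current annotation places 2 antisense or noncoding genes over Id4, and without a stated strand their reads cannot be told apart from those of Id4.

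This fall ran against most markers of the cells in which Id4 is used as a marker. Of 21 tested markers of undifferentiated spermatogonia, 19 were higher and 2, Etv5 and Lhx1, were lower, with a median of 3.97. This and the counts below stand beside 39% higher and 36.7% lower among all tested genes. The spermatocyte list went the way of Id4. Its 13 measured markers summed to 8703 to 9760 CPM in wild type and 343 to 415 CPM in Stra8-deficient testes, with 10 lower and 3 not called. Spermatid markers were all 14 lower. Sertoli markers went the same way, with 15 of 19 lower, 4 not called and a median of -3.50, at 375 to 1648 CPM in Stra8-deficient and 2840 to 3154 CPM in wild-type testes. The part of these cells in the level of Id4 was not tested.

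Scaled to exon length for a comparison between genes, the order of the members turned over. The lengths join all annotated exons and come from another build than the counts, so close ranks can depend on them. In wild type Id4 was at 11.6 ± 0.303 CPM per kb, Id2 at 1.80 ± 0.108, Id1 at 1.39 ± 0.361 and Id3 at 1.13 ± 0.161 (SD, n = 3). Id1 and Id3 overlapped between libraries, while Id4 lay far above the rest. In Stra8-deficient testes Id1 led with 28.9 ± 12.9 CPM per kb, before Id3 at 6.75 ± 1.96, Id2 at 4.39 ± 3.73 and Id4 at 1.71 ± 0.261 (SD, n = 3). There Id1 was clear of the others, but Id3 overlapped Id2, and Id2 overlapped Id4.

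Shares within a library do not depend on scaling between libraries. Id4 made up 70.4%, 75.9% and 72.4% of the summed Id reads per kb in the wild-type libraries and 5.56%, 2.72% and 4.68% in the Stra8-deficient ones. The share of Id1 went from 10.0%, 6.42% and 9.61% to 73.3%, 81.6% and 47.8%. Both shares separated the genotypes without overlap (exact two-sided permutation, p = 0.1, the smallest that 3 against 3 libraries allow). Id2 took 10.5% to 12.0% in wild type and 5.50%, 4.81% and 23.3% in the Stra8-deficient libraries, which overlapped. For Id3 the shares were 6.23% to 7.59% and 10.9% to 24.2%. By this measure Id4 was the leading member in every wild-type library and Id1 in every Stra8-deficient one.

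**Figure D2:**
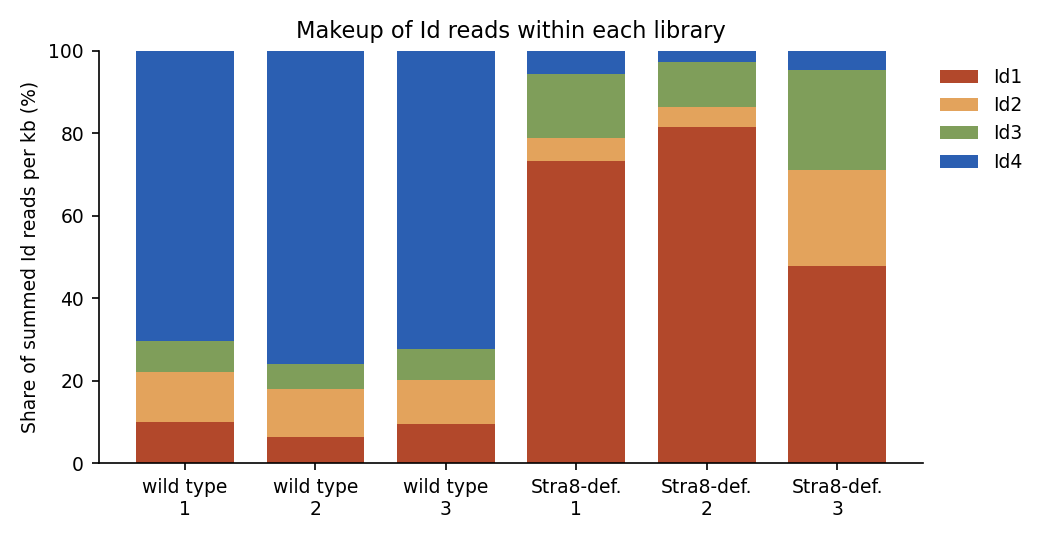
Share of each Id gene in the summed Id reads per kb (%), one bar per library. Id4 fills 70.4% to 75.9% of the wild-type bars and 2.72% to 5.56% of the Stra8-deficient bars, and the third Stra8-deficient bar has the largest Id2 part at 23.3%.

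Pairs of members were compared by the log2 ratio of their reads in the same library. The ratio of Id1 to Id4 averaged -4.83 ± 0.41 in wild type and 2.26 ± 0.81 in Stra8-deficient testes (SD, n = 3), a difference of 7.09. Id3 to Id4 differed by 5.32 and Id2 to Id4 by 3.73. Among the members that were not lower, Id1 to Id2 differed by 3.36 and Id1 to Id3 by 1.77, both in the direction of Id1. The ratio of Id2 to Id3 fell by 1.59. None of the 6 pairs overlapped between genotypes, and each had the smallest exact permutation p of 0.1, also after adjustment over the 6 pairs. These ratios restate the changes of the 4 genes and are not separate support. Single genes did not overlap in 80.2% of cases, and the share for other gene pairs was not computed.

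Summed over the family, Id reads overlapped between genotypes although the shares did not. The 4 genes summed to 52.3, 51.4 and 54.1 CPM in wild type and 52.0, 71.9 and 64.6 CPM in Stra8-deficient testes (exact two-sided permutation, p = 0.3). Per kb the sums were 15.9 ± 0.657 and 41.7 ± 9.62 (SD, n = 3; exact two-sided permutation, p = 0.1); Id4 is the longest member and Id1 the shortest.

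The E proteins, the partners that Id proteins hold off DNA, went in both directions. Tcf3, which encodes E2A, was higher at 2.80 ± 0.30 (edgeR, adjusted p = 2.90e-05), with 304, 140 and 163 CPM against 28.7, 27.4 and 30.8 CPM. Tcf12, which encodes HEB, was higher at 1.36 ± 0.18. Tcf4, which encodes E2-2, was lower at -1.11 ± 0.24, a value that was not called with library size alone (-0.50) and that the Sertoli list scaling turned to 1.11. Together they summed to 406, 272 and 286 CPM in Stra8-deficient and 117, 118 and 133 CPM in wild-type testes.

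Set against these partners, the ratio of Id to E protein reads was lower in the Stra8-deficient testes, where the E protein sum was higher (322 ± 73.3 against 123 ± 8.95 CPM; SD, n = 3) and the Id sum overlapped between genotypes. There were 0.128, 0.264 and 0.226 Id reads per E protein read, against 0.445, 0.434 and 0.406 in wild type. The log2 ratio differed by -1.12 without overlap (exact two-sided permutation, p = 0.1). With reads per kb it differed by -0.87 but unevenly. There the Stra8-deficient libraries were at -1.21, 0.317 and -0.350, the second close to the wild-type 0.399 to 0.513. With Id4 left out of the Id reads the difference had the other sign, and Id1, Id2 and Id3 gave 0.110, 0.244 and 0.202 reads per E protein read against 0.0745, 0.0597 and 0.0619.

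Genes on the tissue-specific bHLH activator list, the other partners of E proteins, changed in both directions. Of 44 listed genes 23 were tested, and 13 were higher, 6 lower and 4 not called, with a median of 2.55, beside 39% higher and 36.7% lower among all tested genes. Ptf1a, a pancreatic and neural factor, had 281 reads against 0 and was at least 50.1-fold higher, taking 3 counts over the wild-type libraries as the floor. Tcf15, a mesodermal factor also known from spermatogonia, was at 26.2, 12.3 and 11.9 CPM against 0.156, 0.141 and 0.367 CPM (6.21 ± 0.58; edgeR, adjusted p = 1.16e-05). Mesp1, a factor of early mesoderm, fell from 115 ± 4.24 to 1.63 ± 0.551 CPM (SD, n = 3).

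The Hes, Hey and Bhlhe genes encode bHLH repressors, several of them Notch targets. Of 12 listed 10 were tested, with 8 higher and 2 lower and a median of 1.83. Among all tested genes 39% were higher and 36.7% lower. Bhlhe41, a clock-linked repressor, rose by 4.14 ± 0.27, from 1.77 ± 0.403 to 31.2 ± 2.17 CPM (SD, n = 3), and Hey2 by 2.35 ± 0.49. Helt, a neural repressor, fell by 4.03 ± 0.45 from a low level of 3.44 ± 0.828 CPM (SD, n = 3).

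Calls of BMP pathway genes upstream of Id transcription went in both directions, as over all tested genes (39% higher and 36.7% lower). Among 13 ligand genes only 5 had enough reads, with 2 higher, 1 lower and 2 not called. Bmp4 was at 2.11, 3.05 and 8.57 CPM against 0.625, 1.41 and 1.47 CPM (1.98 ± 0.63; edgeR, adjusted p = 0.0171). Its call was lost without the third Stra8-deficient library (1.13; edgeR, adjusted p = 0.0525) and without the first wild-type one (1.66; edgeR, adjusted p = 0.0713). Bmp7 was higher at 1.50 ± 0.28, and Bmp8a, a germ cell BMP, was lower at -4.15 ± 0.71 with 5 against 53 reads.

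Of 11 receptor and co-receptor genes, 4 were higher, 2 lower and 5 not called, beside 39% higher and 36.7% lower among all tested genes. The type I receptor gene Bmpr1b had 37.8, 59.9 and 47.0 CPM against 0.781, 0.282 and 0.183 CPM (6.79 ± 0.42; edgeR, adjusted p = 8.34e-07). Acvr2b, a type II receptor gene, rose by 3.23 ± 0.36. Hfe2, which encodes the co-receptor hemojuvelin, fell by 6.03 ± 0.43. The number of higher receptor genes was 7 with library size alone and 9 with Sertoli list scaling.

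The Smads that carry the BMP signal were lower or flat, apart from the shared Smad4. Smad1 was at -1.24 ± 0.21 (edgeR, adjusted p = 0.000608) and Smad5 at -0.66 ± 0.16 (edgeR, adjusted p = 0.00435). Smad5 lost its call with upper-quartile factors (-0.39) and with library size alone (-0.05), and the Sertoli list scaling turned the sign of Smad1 (1.10) and Smad5 (1.64). Smad9 was at 0.22 ± 0.43 (edgeR, adjusted p = 0.647) and Smad4, the partner of all these Smads, at 1.08 ± 0.17 (edgeR, adjusted p = 0.000281). Of 11 tested antagonists and inhibitory Smads among 14 listed, 4 were higher, 4 lower and 3 not called. Among all tested genes 39% were higher and 36.7% lower. Smad7, an inhibitory Smad that BMP and TGF-beta signals induce, rose by 1.94 ± 0.32 and the secreted modulator Bmper by 1.89 ± 0.44. The antagonist gene Sostdc1 fell by 3.84 ± 0.46, and Smad6, the other inhibitory Smad listed, by 2.38 ± 0.41 (edgeR, adjusted p = 0.000627).

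All 5 genes on the list for Id protein stability were lower as scaled here, beside 36.7% lower among all tested genes. None stayed lower and called after scaling to the Sertoli list, where all 5 turned sign. The list mixes genes of different roles, so their shared direction gives no reading of Id protein stability, which was not measured. Usp1, a deubiquitinase that protects Id proteins from breakdown, was at 26.1, 27.6 and 28.7 CPM against 106, 112 and 103 CPM (-1.96 ± 0.16; edgeR, adjusted p = 4.86e-06). Its cofactor gene Wdr48 was at -1.25 ± 0.19. Fzr1, whose product Cdh1 directs the anaphase-promoting complex to its substrates, was at -1.71 ± 0.30, and Cdc27, a subunit of that complex, at -0.93 ± 0.21. The COP9 signalosome gene Cops5 was at -0.54 ± 0.21 (edgeR, adjusted p = 0.0377) and turned to 0.07 with library size alone. Its call was also lost with upper-quartile factors (-0.27), without the second Stra8-deficient library (-0.54) and without any 1 wild-type library (-0.63 to -0.48). Cdc27 was not called with library size alone (-0.32).

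Other proteins reported to bind Id factors include ETS, PAX and retinoblastoma family members. Of 10 tested genes among 11 listed, 5 were higher, 4 lower and 1 not called, which is near the shares of all tested genes (39% higher and 36.7% lower). Ets1 rose by 3.86 ± 0.33 and Ets2 by 2.95 ± 0.37, at 85.8 ± 27.8 and 29.1 ± 11.5 CPM in Stra8-deficient against 5.91 ± 1.72 and 3.75 ± 1.10 CPM in wild-type testes (SD, n = 3). Pax5, a B cell factor, had 1 read against 190, so that the wild-type level was 355 times as high (95% counting interval 63.0 to 14096).

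Genes of the cyclin-dependent kinase inhibitors, some of which Id proteins are known to repress, differed from gene to gene. Of 7 listed 6 were tested, with 3 higher, 1 lower and 2 not called, beside 39% higher and 36.7% lower among all tested genes. Cdkn2a, which encodes p16 and p19Arf, was at 89.8, 106 and 123 CPM against 7.03, 6.64 and 6.24 CPM (4.00 ± 0.21; edgeR, adjusted p = 2.88e-07). Cdkn1c was higher at 3.36 ± 0.52 with a wide spread of 394, 81.1 and 229 CPM, and Cdkn1b, which encodes p27, at 2.46 ± 0.26. Cdkn2c, which encodes p18, fell by 4.90 ± 0.31, from 74.7 ± 4.21 to 2.45 ± 0.995 CPM (SD, n = 3). Cdkn1a, which encodes p21, was at -0.24 ± 0.26 (edgeR, adjusted p = 0.413) and was called lower without the first Stra8-deficient library (-0.55; edgeR, adjusted p = 0.0325). Cdkn2b was at -0.24 ± 0.25 (edgeR, adjusted p = 0.410). Cdkn2d, with 1 and 5 reads, was not tested.

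**Figure D3:**
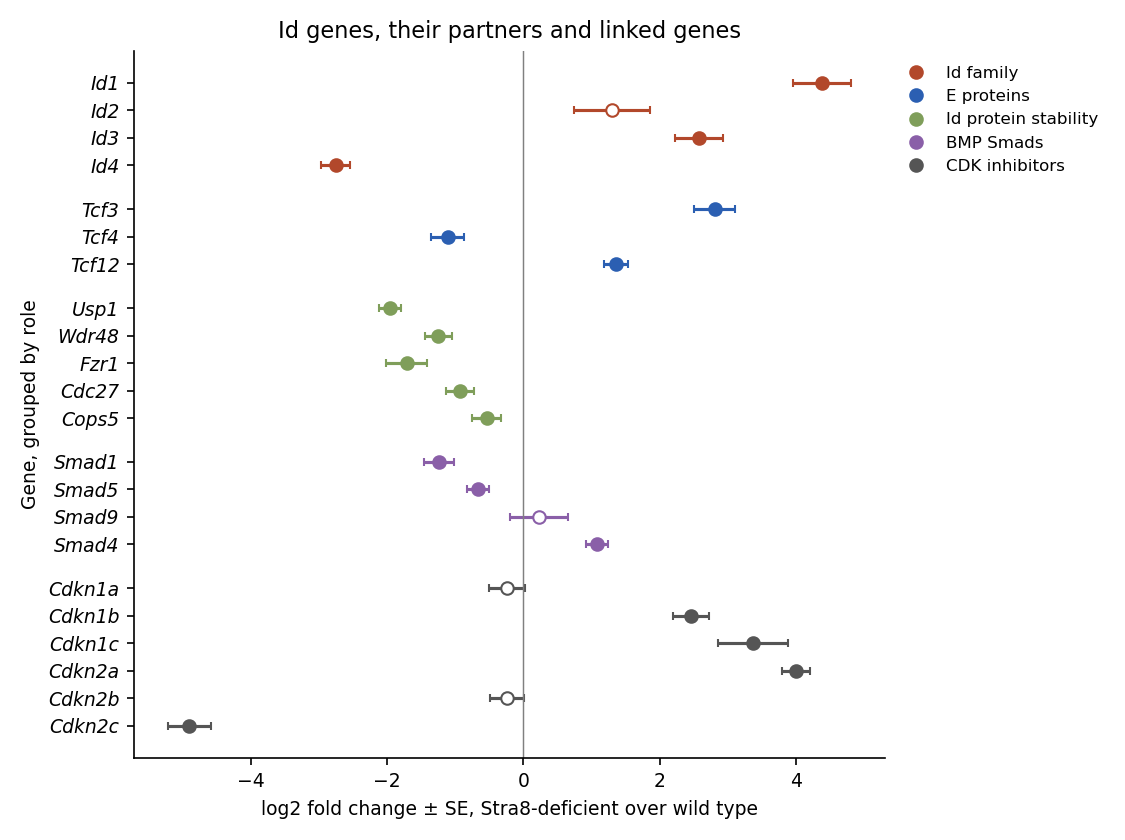
Log2 fold change (Stra8-deficient over wild type) with its SE for the Id genes and the genes of 4 linked lists. Filled points passed the adjusted p of 0.05 and open points did not. Tcf3 (2.80) and Tcf12 (1.36) lie right of 0 and Tcf4 (-1.11) left, the 5 stability genes all lie left, and Cdkn2a (4.00) lies farthest right among the CDK inhibitor genes.

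For each member the 3 genes with the nearest profile were named, by the Euclidean distance between centred log2 CPM profiles over the 6 libraries, among 14798 genes. Nearest to Id4 were Psmf1 (0.185), Cacnb1 (0.201) and Egln2 (0.206). Ifi27l1 (0.0986), Cnih (0.219) and Dynlrb1 (0.264) came nearest to Id3. Id2 had Pla2g16 (0.237), Arl6ip5 (0.368) and Sh3bgrl (0.410), each with its highest level in the third Stra8-deficient library. Pla2g16, for example, was at 6.32, 9.62 and 29.5 CPM against 7.65, 6.07 and 6.60 CPM. Id1 had 2010107G23Rik (0.417), Ptma (0.481) and Cd7 (0.563), all highest in the second Stra8-deficient library. Reads of Ptma, a gene with many retrocopies, are uncertain.

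**Figure D4:**
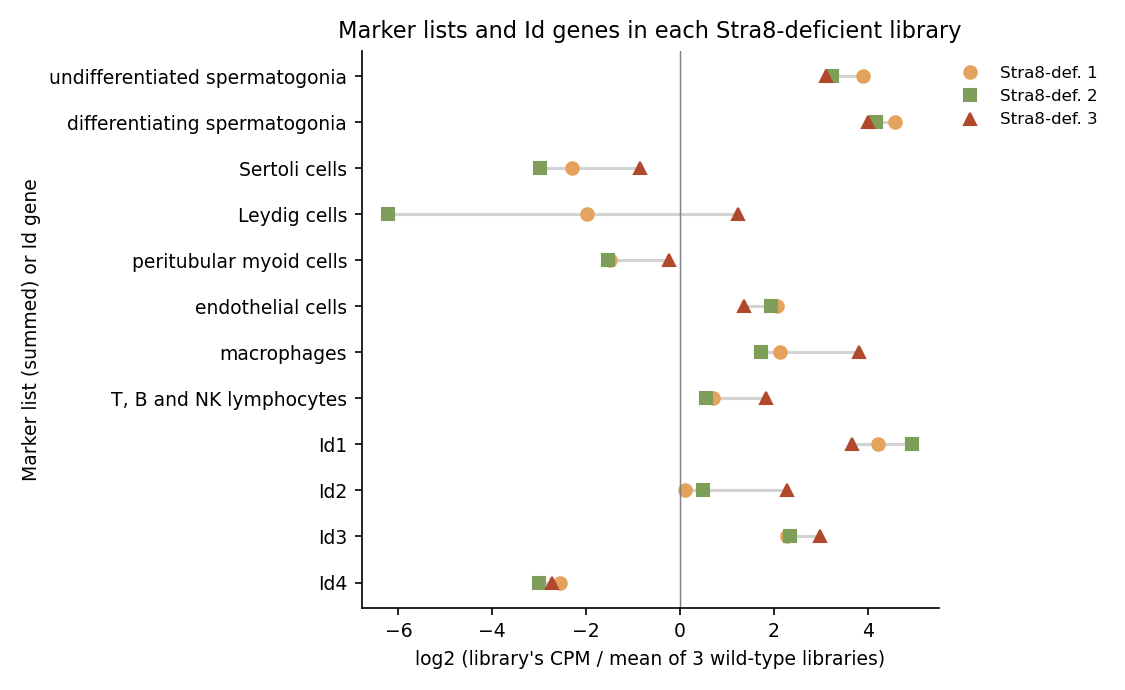
Log2 ratio of each Stra8-deficient library's CPM to the mean of the 3 wild-type libraries, for summed marker lists and for each Id gene. Symbols are the 3 libraries. The third library is highest for the Leydig, macrophage, Sertoli, myoid and lymphocyte lists and for Id2 and Id3, and lowest for Id1, the endothelial list and both spermatogonia lists.

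Scaling shifted all genes. Their median was 2.35 with Sertoli list scaling, 0.73 with library size alone, -0.0088 with RLE factors and 0.38 with upper-quartile factors. Higher genes made up 51.5% of calls as reported, 63.6% with library size alone and 82.8% with the Sertoli list. Id1 (4.27 to 6.89) and Id3 (2.45 to 4.69) were higher and called, and Id4 (-2.88 to -0.55) was below 0, under each of these scalings. The sum of the Sertoli markers itself ranged from 375 to 1648 CPM among the Stra8-deficient libraries. Clu, Ctsl and Vim made up most of it in each of these.

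**Figure D5:**
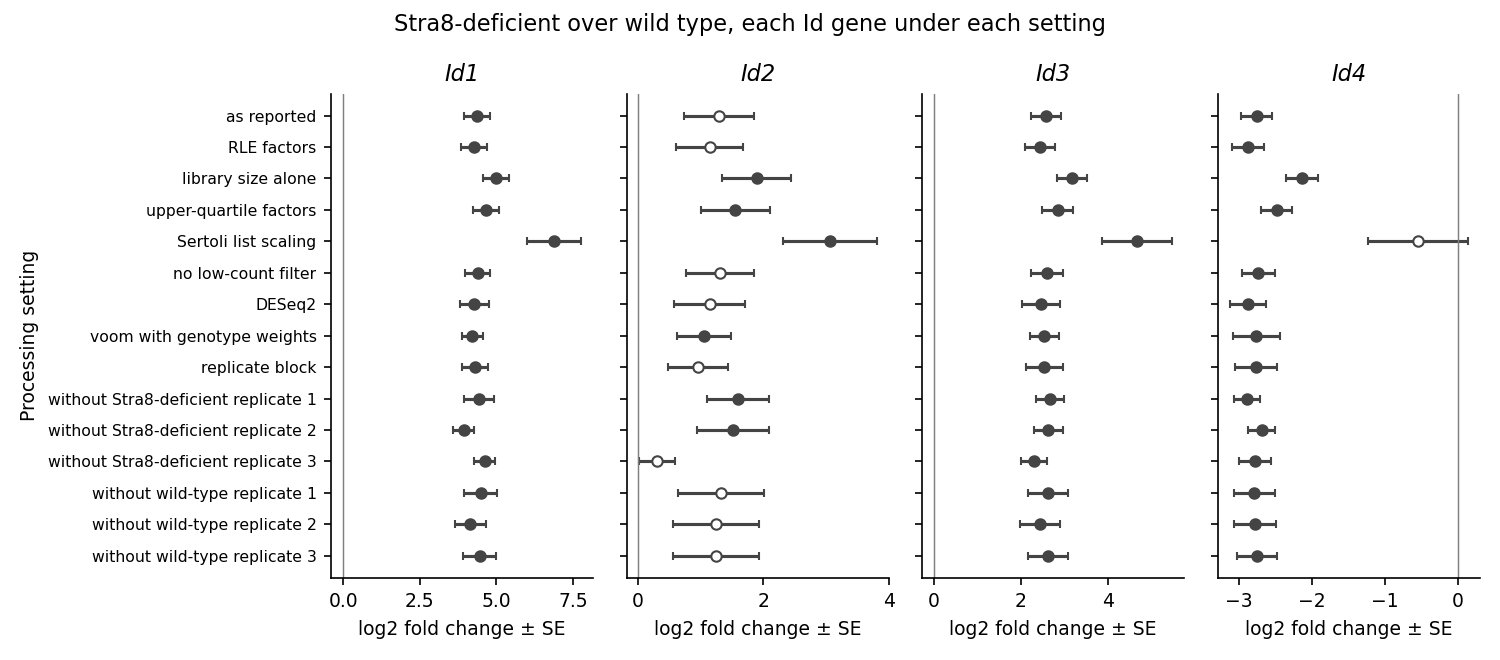
Log2 fold change of each Id gene with its SE under each processing setting, with its own horizontal scale per gene. Filled points passed the adjusted p of 0.05. Id1, Id3 and Id4 keep their side of 0 throughout, and Id2 drops to 0.31 without the third Stra8-deficient library.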

How the data were processed

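Polyadenylated RNA of whole testis was sequenced in 6 libraries, 3 Stra8-deficient and 3 wild type. The submitters' processing notes name TopHat, HTSeq, edgeR and build mm9. Versions, settings, strand handling and annotation: not given in the sources used here. Counts as deposited by the authors are whole reads per gene symbol without normalisation. Where the labels do not say that replicates came from separate males, p-values measure only the spread between these libraries, which may be technical. The authors' deposited comparison gives log2 ratios, and its deposited p-value columns are the nominal and corrected p.

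Rows for reads outside genes (20.9% to 34.5% of a library) were left out. The 21786 symbols common to all 6 files hold 99.3% to 99.7% of gene reads. After filterByExpr 15018 genes were compared with edgeR 4.0.16 (R 4.3.3; TMM factors 0.796 to 1.27; glmQLFit with robust estimation; Benjamini-Hochberg adjustment over all genes; tested on simulated data). The simulated data had the same spread in both genotypes and few changed genes, unlike the data here. They therefore do not test the calls under unequal spread. SE is the size of the fold change over the square root of F. Log2 CPM used a prior count of 2. A total of 3 counts equals 0.243 to 0.447 CPM per library, and such floors and intervals cover counting error only. Exon-union lengths came from GENCODE M21 (build GRCm38, other than the authors' mm9) by symbol.

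Members and lists were chosen with earlier results of these data known. Named were all E proteins, Smads that carry the BMP signal, stability genes and CDK inhibitors. From each other list came the 2 called genes that changed most in its prevailing direction and the 1 that changed most in the other. These had a mean log2 CPM of at least 0. Smad6 was named in addition, beside Smad7. Any 2 libraries of a genotype differed by more than sampling noise (chi-square per degree of freedom 2.74 or more), so none was counted as a duplicate. Alternatives were RLE, upper-quartile, library-size and Sertoli-list scaling, no filter, DESeq2 1.42.0, limma 3.58.1 voom with weights per genotype, a replicate block, and leaving out each library.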

Additional observations from a re-analysis of the deposited data

How the results depend on the processing

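Id1 and Id3 kept their direction and call under all 14 alternatives, and Id4 kept its call under 13; scaled to the Sertoli list it was at -0.55. Id2 was not called as reported (1.29). It was called with library size alone (1.90), upper-quartile factors (1.56), the Sertoli list (3.06) and voom with weights per genotype (1.06), and ranged from 0.31 to 1.60 when 1 library was left out. The number of members called was 3 or 4. Deviations of same-numbered libraries correlated at 0.058, 0.080 and -0.040, and those of differently numbered ones at -0.125 to 0.076. With 3 libraries per genotype these values cannot decide whether the numbers pair libraries. With a replicate block Id2 was at 0.96 (edgeR, adjusted p = 0.0799). The members called then stayed at 3, and calls over all genes went from 11379 to 11218.

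Scaled to the Sertoli list these genes changed sign: Tcf4 (1.11), Smad1 (1.10), Smad5 (1.64), Usp1 (0.31), Wdr48 (1.12), Fzr1 (0.62), Cdc27 (1.41), Cops5 (1.64), Cdkn1a (2.03) and Cdkn2b (2.07). With library size alone Cops5 (0.071), Cdkn1a (0.38) and Cdkn2b (0.38) did, and with upper-quartile factors Cdkn1a (0.036) and Cdkn2b (0.035). Smad9 ranged from -0.12 to 0.59 with 1 library left out.

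Counts that moved by over 1.5 times with library size alone were lower E proteins (1 to 0), higher BMP receptors (4 to 7), lower Smads (2 to 1, as with upper-quartile factors) and lower stability genes (5 to 3). With the Sertoli list, lower bHLH activators went from 6 to 2, lower E proteins from 1 to 0, higher BMP ligands from 2 to 4, higher receptors from 4 to 9 and lower ones from 2 to 1, higher Smads from 1 to 3 and lower ones from 2 to 0, higher antagonists from 4 to 7 and lower ones from 4 to 1, lower stability genes from 5 to 0 and higher ones from 0 to 1, and higher CDK inhibitors from 3 to 5. Without a filter, lower bHLH activators were 10 and lower BMP ligands 3. Higher BMP ligands were 1 without the third Stra8-deficient or the first wild-type library, and lower CDK inhibitors 2 without the first Stra8-deficient one. The cause of these shifts was not tested. Wild-type levels of Id1 and Id3 rest on 8 to 14 reads a library, which limits the precision of their folds.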
